A study of Mus musculus with 12 samples.

Results

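The immunity-related GTPases (IRGs) are described here in bulk RNA from 12 orthotopic 4T1 tumors. The members were the 7 rows of the deposited expression table whose symbol was Irgm1, Irgm2, Igtp, Ifi47, Tgtp1, Tgtp2 or Iigp1, out of 55401 genes in all. 4T1 is a mouse mammary carcinoma line, and the tumors grew in Balb/c mice. The groups held 3 tumors each: control (an isotype IgG), IL-10-Fc (recombinant IL-10 joined to an antibody Fc part), aCSF1R (an antibody that binds CSF1R, the cytokine receptor on which most tissue macrophages depend) and BF10 (that antibody with human IL-10 fused to its heavy chain). Per the labels, treatment began at a tumor volume of 100 mm3 and comprised 6 doses, although the design text of the series counts the doses differently. The samples were whole tumors, so that less RNA per cell and fewer cells that carry it cannot be told apart, and the labels do not say which cells made the transcripts.

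IRGs are GTPases that interferons, above all interferon gamma, induce in mouse cells, where they disrupt the vacuoles in which intracellular parasites and bacteria live. The family has a regulator arm (Irgm1, Irgm2 and Igtp, the last also known as Irgm3), whose proteins sit on the cell's own membranes and keep the others inactive there. The effector arm (Ifi47, Tgtp1, Tgtp2 and Iigp1, also known as Irgd, the Irgb6 pair and Irga6) loads onto the pathogen vacuole. Interferon gamma signals through the kinases Jak1 and Jak2, and promoters that respond to interferons carry GAS elements and ISRE elements, the latter bound by Irf1 and related factors.

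Promoter windows are shown because these elements are the part of the sequence through which interferon signals reach the family. RefSeq windows on GRCm38.p6, from 250 bases before to 50 bases after the annotated start, were found for 6 of the 7 members, all on chromosome 11. An ISRE core (GAAA, any 2 bases and GAAA again, on either strand) was present in 5 of these 6, against 3.44% of all 32841 windows. A GAS element (TTCNNNGAA, which reads alike on both strands) was present in 4 of the 6, against 8.30% of all windows. In Irgm2, Igtp, Tgtp1 and Tgtp2 the GAS element began 11 bases before the ISRE core, and 0.0944% of all windows held both elements with their first bases within 12 bases of each other. The stretches around the cores are given 5′ to 3′ in gene orientation, with capitals for the letters of either element.
Irgm1: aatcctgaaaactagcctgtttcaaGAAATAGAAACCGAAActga
Irgm2: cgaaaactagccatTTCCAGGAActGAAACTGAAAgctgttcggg
Igtp: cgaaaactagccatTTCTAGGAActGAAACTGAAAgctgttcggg
Tgtp1: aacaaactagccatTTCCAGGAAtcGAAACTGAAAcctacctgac
Tgtp2: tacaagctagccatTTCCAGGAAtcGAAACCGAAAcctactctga
The Irgm2 and Igtp stretches were identical at 44 of 45 bases and the Tgtp1 and Tgtp2 stretches at 37 of 45, whereas Irgm2 and Tgtp1 shared 33 of 45. Irgm1 held 2 overlapping ISRE cores and no GAS match in the window. These stretches lie at chr11:48871431-48871475 (Irgm1, minus strand), chr11:58214888-58214932 (Irgm2, plus strand), chr11:58199497-58199541 (Igtp, plus strand), chr11:48992304-48992348 (Tgtp1, minus strand) and chr11:49064263-49064307 (Tgtp2, minus strand). The first ISRE core began 30, 64, 34, 77 and 70 bases before the start that the window belongs to, in the same order. The windows of Irgm2 (58214727 to 58215026) and Tgtp1 (48992197 to 48992496) lie inside the gene spans given in the next paragraph. The window of Ifi47 belongs to the most upstream of its annotated starts and held neither element. A match of letters is a description of the window and was not tested as a binding site.

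In the GENCODE vM21 annotation of the same assembly, Irgm1 (48861968 to 48871683), Tgtp1 (48985327 to 48994172) and Tgtp2 (49057194 to 49064206) lie on the minus strand of chromosome 11, beside Ifi47 (49076587 to 49096974) on the plus strand. Igtp (58199556 to 58207591) and Irgm2 (58199618 to 58222782) form a separate group on the plus strand. The coding sequence of each effector on chromosome 11 is in 1 exon, whereas that of each regulator spans 2 exons. Annotated coding lengths were close, from 1221 bases in Irgm2 to 1269 bases in Igtp. The longest coding transcripts of Tgtp1 and Tgtp2 were nearly the same sequence, and 2480 of the 2774 stretches of 50 bases in Tgtp1 (89.4%) occur unchanged in Tgtp2. Their separate values therefore depend on how shared reads were divided, and their sum is given beside them. Igtp and Irgm2 share 162 exonic bases on the same strand.

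All 7 members were abundant. Values are given as TPM, each FPKM divided by its library's FPKM sum and multiplied by 1000000, a scale that is per length and can be compared between genes. Mean TPM over the 12 tumors was 179 for Ifi47, 177 for Iigp1, 164 for Igtp, 140 for Tgtp2, 134 for Tgtp1, 118 for Irgm1 and 55.9 for Irgm2. Irgm2 stood at the 83.1 percentile of the 15504 genes tested and the other 6 members between the 92.0 and 95.1 percentiles. The ranges of neighbouring members in this order overlapped, and all 7 members passed the filter on low values (TPM of at least 1 in at least 3 libraries).

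The 12 libraries fell into sets that cut across the groups, and the family's arms differed between these sets. FPKM sums lay between 609695 and 648413 in 7 libraries and between 782919 and 921581 in the other 5 (control replicates 4 and 7, IL-10-Fc replicate 7, aCSF1R replicate 8 and BF10 replicate 6). Ribosomal protein genes took 12.9% to 15.5% of the FPKM sum in the lower-sum libraries and 21.3% to 26.1% in the higher-sum libraries, and mitochondrial genes took 3.14% to 3.96% and 5.90% to 9.26%. Total reads per library were not in the files used here. Steps of the lowest FPKM values in 608 genes, taken as 1 read each, gave a depth estimate relative to the median. It lay between 0.924 and 1.06 in all 12 libraries. These genes were kept only if their non-zero values were close across libraries, which favours estimates near 1. The estimate therefore cannot show whether depth differed between libraries. Control had 2 higher-sum libraries of 3 and every treated group had 1 of 3, so each comparison with control is also given within the sets or with a term for the set in the model.

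Irgm1, the regulator whose loss disturbs autophagy and resistance to intracellular pathogens, was measured at 47.0, 93.6 and 32.5 TPM in control replicates 4, 5 and 7. It stood at 186, 139 and 53.9 TPM in IL-10-Fc replicates 2, 4 and 7, and at 189, 181 and 51.1 TPM in aCSF1R replicates 4, 6 and 8. In BF10 replicates 3, 6 and 7 it was at 180, 46.2 and 215 TPM. The higher-sum library was the lowest in every treated group and overlapped control, and among the lower-sum libraries control replicate 5 was the lowest of 7. Group means were 57.7 ± 31.96 TPM in control, 126 ± 66.8 under IL-10-Fc, 140 ± 77.4 under aCSF1R and 147 ± 89.0 under BF10 (SD, n = 3).

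Irgm2, a regulator of Golgi-associated membranes, was likewise lowest in the higher-sum library of every treated group. It was at 17.8, 51.4 and 12.2 TPM in control replicates 4, 5 and 7 and at 93.4, 69.2 and 23.2 TPM in IL-10-Fc replicates 2, 4 and 7. It was at 92.7, 101 and 17.2 TPM in aCSF1R replicates 4, 6 and 8 and at 73.8, 22.2 and 96.5 TPM in BF10 replicates 3, 6 and 7. Its highest value was 8.30 times its lowest, the widest range of the 7 members. Group means were 27.1 ± 21.2 TPM in control against 61.9 ± 35.7, 70.4 ± 46.3 and 64.2 ± 38.07 under IL-10-Fc, aCSF1R and BF10 (SD, n = 3).

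Igtp, the regulator on the endoplasmic reticulum and lipid droplets, was the most abundant of its arm. It was at 77.5, 114 and 61.6 TPM in control replicates 4, 5 and 7 and at 243, 218 and 106 TPM in IL-10-Fc replicates 2, 4 and 7. It was at 237, 220 and 98.6 TPM in aCSF1R replicates 4, 6 and 8 and at 231, 105 and 261 TPM in BF10 replicates 3, 6 and 7. Of the 12 libraries, control replicate 5 exceeded the higher-sum treated libraries, so that control and each treated group overlapped, but every treated library was above the control libraries of its own set. Group means were 84.5 ± 27.0 TPM in control, 189 ± 72.8 under IL-10-Fc, 185 ± 75.6 under aCSF1R and 199 ± 82.4 under BF10 (SD, n = 3).

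The effectors varied less between libraries. Ifi47 was at 184, 122 and 128 TPM in control replicates 4, 5 and 7 and at 184, 204 and 195 TPM in IL-10-Fc replicates 2, 4 and 7. It was at 162, 168 and 223 TPM in aCSF1R replicates 4, 6 and 8 and at 188, 206 and 188 TPM in BF10 replicates 3, 6 and 7. The BF10 and IL-10-Fc libraries lay above the 3 control libraries, under IL-10-Fc by a margin under 1 TPM, and aCSF1R overlapped control. Group means were 144 ± 34.2 TPM in control against 194 ± 10.1, 184 ± 33.7 and 194 ± 10.8 under IL-10-Fc, aCSF1R and BF10 (SD, n = 3). Ifi47 did not overlap control under BF10, where 2.36% of all genes tested lay wholly above control, nor under IL-10-Fc, where 4.75% did. No other member did so in these comparisons, and none did under aCSF1R, where 1.61% of all genes did.

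Tgtp1 was at 145, 90.3 and 84.9 TPM in control replicates 4, 5 and 7, at 154, 136 and 114 TPM in IL-10-Fc replicates 2, 4 and 7, at 127, 130 and 224 TPM in aCSF1R replicates 4, 6 and 8, and at 117, 134 and 154 TPM in BF10 replicates 3, 6 and 7. Tgtp2 was at 168, 89.0 and 89.8 TPM, at 143, 137 and 136 TPM, at 112, 114 and 243 TPM and at 142, 159 and 146 TPM in the same libraries. In both genes aCSF1R replicate 8 was the highest of the 12 libraries, and control replicate 4 lay within or above the range of each treated group. The ratio of Tgtp1 to Tgtp2 stayed between 0.827 and 1.15 over all libraries. Their summed TPM was 222 ± 78.2 in control, 273 ± 23.6 under IL-10-Fc, 317 ± 130 under aCSF1R and 284 ± 22.1 under BF10 (SD, n = 3).

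Iigp1, the best studied effector, is the member outside chromosome 11 (chromosome 18, 60376027 to 60392634, plus strand). It was at 194, 108 and 107 TPM in control replicates 4, 5 and 7 and at 182, 187 and 166 TPM in IL-10-Fc replicates 2, 4 and 7. It was at 167, 163 and 269 TPM in aCSF1R replicates 4, 6 and 8 and at 199, 180 and 206 TPM in BF10 replicates 3, 6 and 7. Control replicate 4 lay within the treated range and the other 2 control libraries lay below it. Group means were 136 ± 50.1 TPM in control, 178 ± 10.8 under IL-10-Fc, 200 ± 59.9 under aCSF1R and 195 ± 13.7 under BF10 (SD, n = 3).

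**Figure D1:**
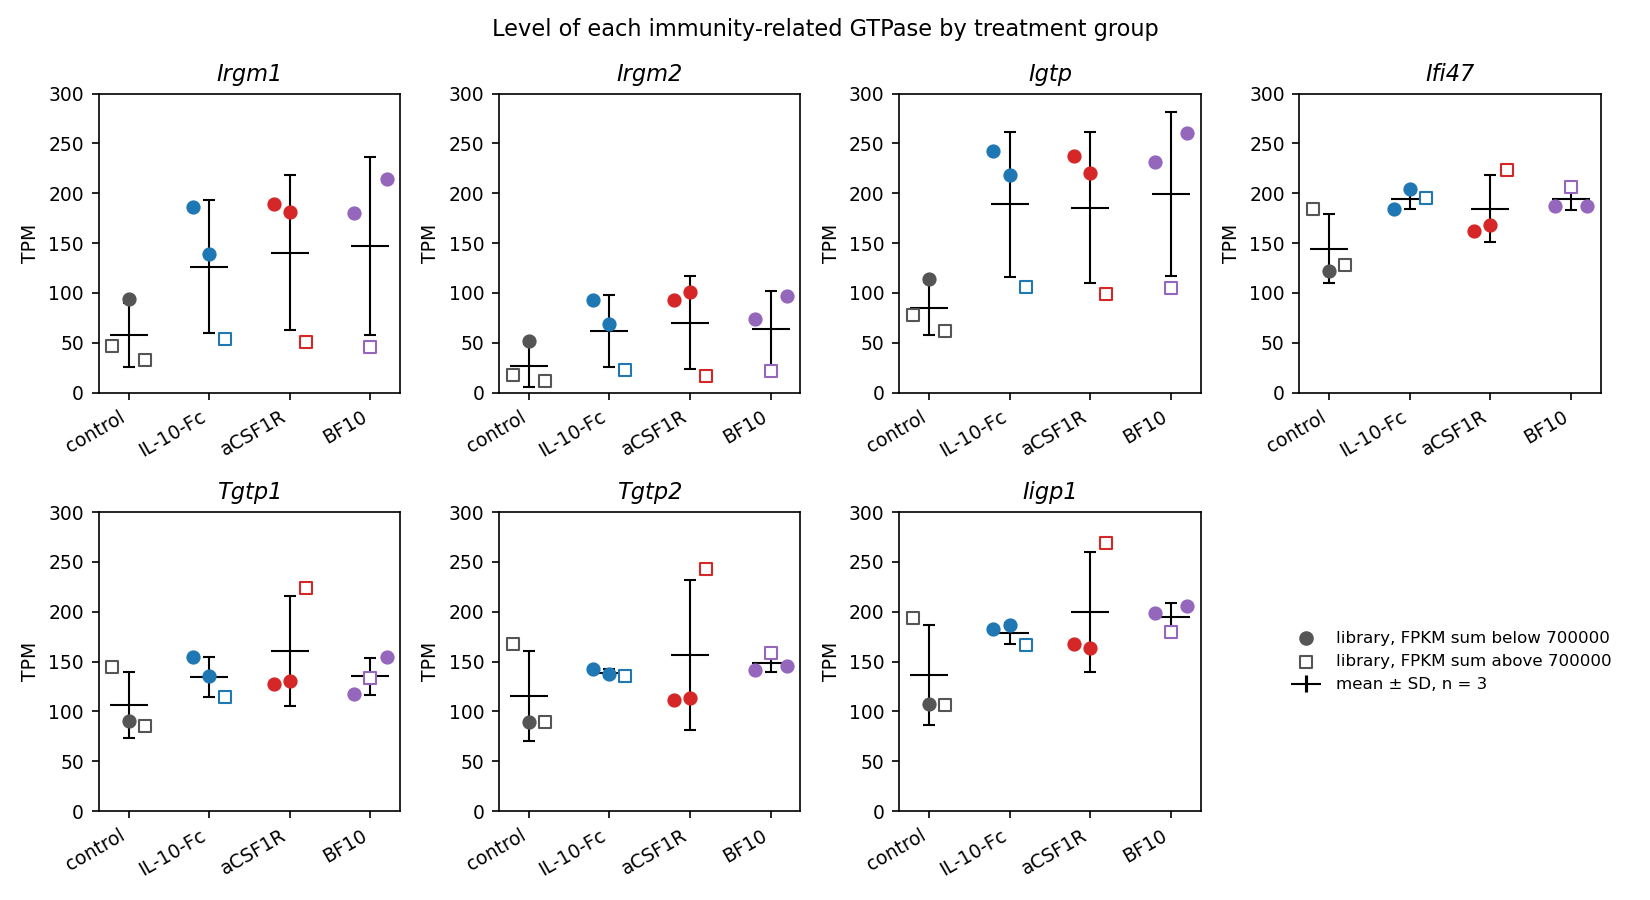
Level of each member in TPM (vertical axes, 0 to 300) in the 3 tumors of each group, with filled circles for libraries whose FPKM sum was below 700000, open squares for those above it, and bars for the mean ± SD. The open square is the lowest point of each treated group in Irgm1, Irgm2 and Igtp, whereas in the 4 effectors the open square of aCSF1R is the highest point of its group.

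Summed over the 7 members, the family stood at 672 ± 159 TPM in control, 1023 ± 204 under IL-10-Fc, 1097 ± 25.6 under aCSF1R and 1083 ± 211 under BF10 (SD, n = 3). The lowest aCSF1R and BF10 libraries, at 1077 and 852 TPM, were above the highest control library at 833 TPM, whereas IL-10-Fc overlapped control from 794 TPM. The sum also differed between library sets, at 1072 ± 190 TPM in the lower-sum and 824 ± 217 in the higher-sum libraries (SD). In aCSF1R replicate 8 regulators made up 167 TPM and effectors 959, against 519 and 569 in replicate 4 and 502 and 575 in replicate 6. In limma on log2(TPM + 1), with 1 mean for each group, all 7 members had a higher mean than control in each treated group. The differences from control lay between 0.37 and 1.24 log2 units under BF10, between 0.33 and 1.21 under IL-10-Fc and between 0.36 and 1.25 under aCSF1R. None passed the threshold (Benjamini-Hochberg adjusted p below 0.05 over all genes tested and at least 1.5-fold). The adjusted p was 0.788 for every member under BF10, 0.738 under IL-10-Fc and 0.893 under aCSF1R. Of all genes tested, 0% were called under BF10, 0.00645% under IL-10-Fc and 0.568% under aCSF1R. At an unadjusted p below 0.05, 1 member passed in each comparison, Igtp, beside 1.51%, 1.44% and 3.46% of all genes. The exact permutation test of single members, two-sided, reached its smallest possible p of 0.1 for Ifi47 under BF10 and under IL-10-Fc and gave 0.2 to 0.5 otherwise.

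In the model of group means, the regulators differed more from control than the effectors in all 3 comparisons. That order was not kept with a library set term, as given below, and the values here are from group means alone. Igtp was higher by 1.17 ± 0.47 log2 units under BF10 (SE, 95% interval 0.13 to 2.21), by 1.11 ± 0.47 under IL-10-Fc and by 1.07 ± 0.47 under aCSF1R. Irgm1 was higher by 1.20 ± 0.72, 1.08 ± 0.72 and 1.19 ± 0.72, and Irgm2 by 1.24 ± 0.83, 1.21 ± 0.83 and 1.25 ± 0.83. Among the effectors, Iigp1 differed by 0.57 ± 0.27, 0.44 ± 0.27 and 0.57 ± 0.27 and Ifi47 by 0.44 ± 0.21, 0.45 ± 0.21 and 0.36 ± 0.21. Tgtp1 differed by 0.37 ± 0.28, 0.37 ± 0.28 and 0.58 ± 0.28, and Tgtp2 by 0.42 ± 0.33, 0.33 ± 0.33 and 0.40 ± 0.33.

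The median of all genes tested was itself shifted from control by 0.32 log2 units under BF10, 0.35 under IL-10-Fc and 0.24 under aCSF1R, a shift that scaling by the median of ratios brought to 0.01, -0.01 and 0.03. Relative to it, the regulators were higher than control by 0.85 to 0.92 under BF10, by 0.73 to 0.86 under IL-10-Fc and by 0.83 to 1.01 under aCSF1R. The effectors were at 0.05 to 0.25, at -0.03 to 0.10 and at 0.12 to 0.34 on the same scale. A direction for the effectors in the IL-10-Fc group, and for Tgtp1 under BF10, is therefore not given by these data, because the sign of some of them depended on the scaling.

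Within each library set a control tumor was the lowest of all for all 7 members: control replicate 5 among the 7 lower-sum libraries, and control replicate 7 among the 5 higher-sum libraries. Among all genes tested, 4.15% had a control library lowest in both sets. The pattern was chosen after the values were seen and has no test. Within the lower-sum libraries, the members differed from the single control library by 0.57 to 1.10 log2 units under BF10, 0.64 to 1.00 under IL-10-Fc and 0.34 to 0.99 under aCSF1R. Within the higher-sum libraries, each treated group had 1 library, and the differences from the mean of control replicates 4 and 7 were 0.24 to 0.60, 0.04 to 0.62 and 0.21 to 1.01.

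With a term for the library set in the model, the arms overlapped and the intervals narrowed. Irgm2 was at 0.59 and Iigp1 at 0.64 under BF10, and Irgm1 at 0.522 and Ifi47 at 0.525 under IL-10-Fc. Under aCSF1R, Irgm2 was at 0.60 and Tgtp1 at 0.64. Igtp was the highest member in each comparison in this fit, whereas Irgm2 was the highest in each in the model of group means. The 7 members differed from control by 0.43 to 0.82 log2 units under BF10, 0.43 to 0.76 under IL-10-Fc and 0.44 to 0.72 under aCSF1R, where the medians of all genes were 0.07, 0.10 and 0.01. Igtp under aCSF1R passed the threshold, at 1.64-fold (0.72 log2 units, limma adjusted p = 0.0318). With each of the 12 libraries left out in turn, this call was kept in 5 fits and lost in 7, and the difference ranged from 0.53 to 0.85. It was lost without control replicate 5 (limma adjusted p = 0.264) or 7 (0.111), without any of the aCSF1R libraries 4, 6 and 8 (0.107, 0.106 and 0.0744), and without IL-10-Fc replicate 2 (0.0538) or 4 (0.0574). The call rate over all genes was 2.01% in that comparison, against 0.00645% under BF10 and 0.0258% under IL-10-Fc. Igtp was at 0.82 (adjusted p = 0.625) under BF10 and at 0.76 (adjusted p = 0.630) under IL-10-Fc. The difference of Igtp between BF10 and aCSF1R was 0.10 with a 95% interval of -0.22 to 0.42. The call under aCSF1R alone therefore does not show a difference between these treatments, and the interval does not exclude one. At an unadjusted p below 0.05, 5 members passed under BF10, 4 under IL-10-Fc and 6 under aCSF1R, beside 3.75%, 3.70% and 7.53% of all genes. The 3 comparisons share their control libraries, and control replicate 5 is the lone control in its set.

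**Figure D2:**
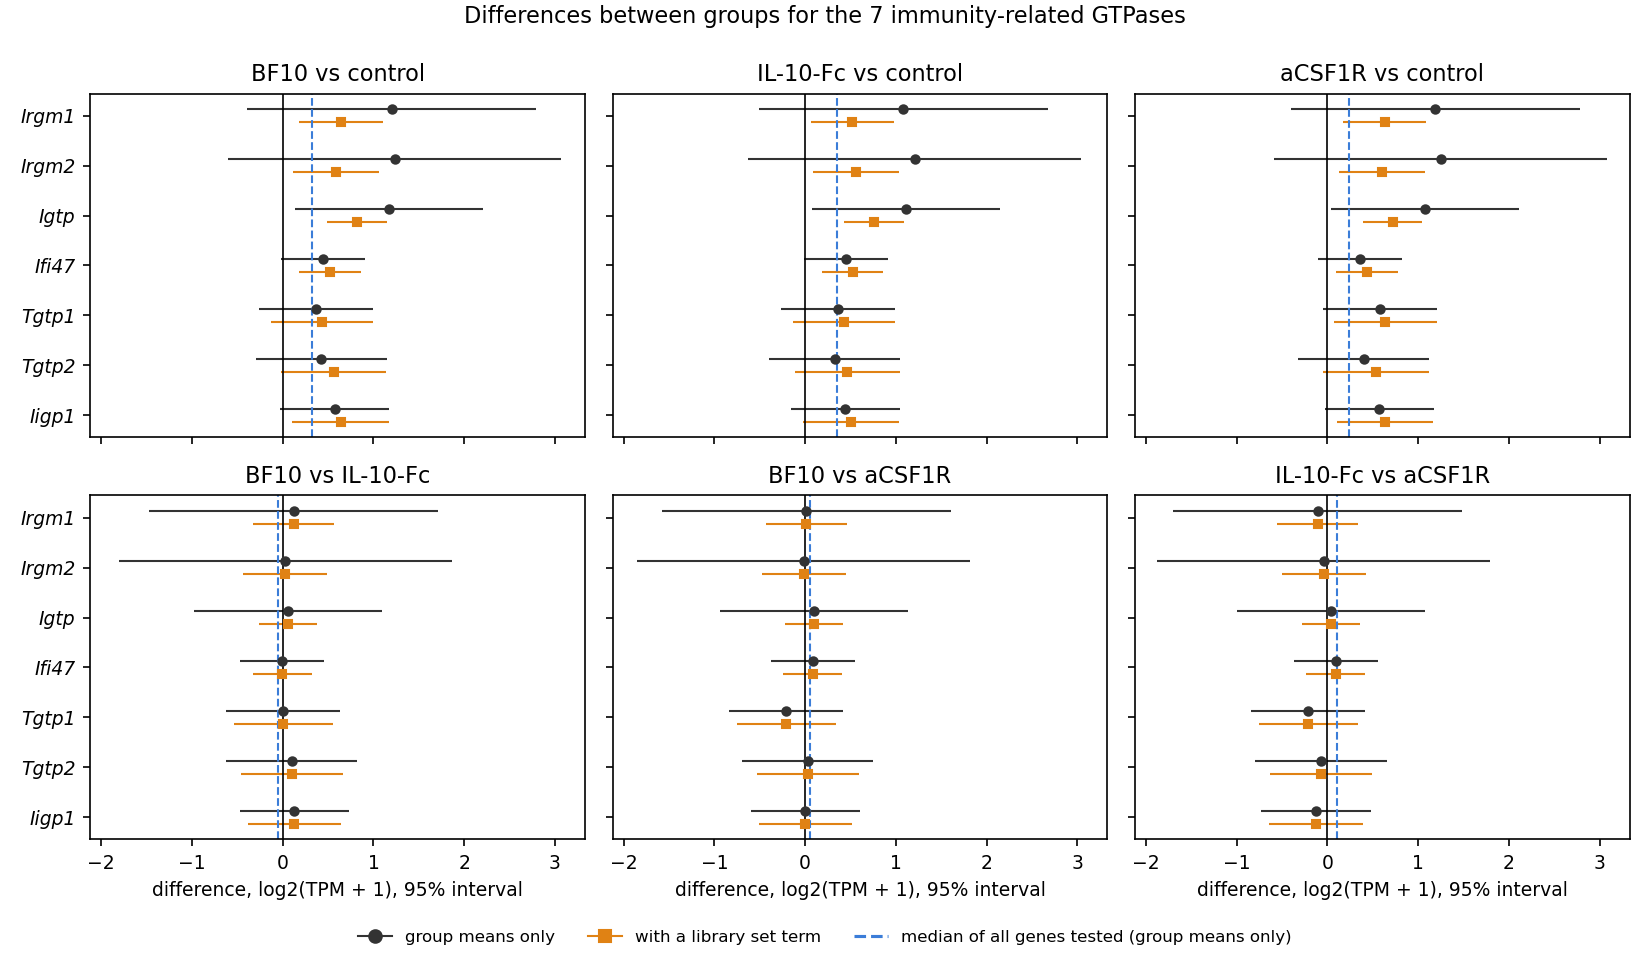
Difference of each member between groups in log2(TPM + 1) (horizontal axes), with 95% intervals, from the model of group means (black circles) and with a library set term (orange squares). Dashed lines mark the median of all genes. Against control all points lie above 0, whereas between treated groups they lie between -0.21 and 0.13.

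The treatments were also compared with each other. BF10 differed from IL-10-Fc by -0.005 to 0.13 log2 units over the 7 members, from aCSF1R by -0.20 to 0.10, and IL-10-Fc from aCSF1R by -0.21 to 0.09. None passed the threshold or had an unadjusted p below 0.05, and the limma adjusted p was 1 for all members in all 3 comparisons. The call rates over all genes were 0%, 0.735% and 0.542%. These p-values do not show that the treatments act alike. For Ifi47, the member with the narrowest intervals, BF10 against aCSF1R allowed -0.38 to 0.55, and for Irgm2, with the widest, -1.85 to 1.82. With the set term the Igtp interval for BF10 against IL-10-Fc was -0.26 to 0.38.

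If the fusion protein acted as the sum of its parts, the difference of BF10 from control would equal that of IL-10-Fc plus that of aCSF1R on the log2 scale. In the model of group means, BF10 was below this sum for all 7 members, by a value from -1.22 (Irgm2) to -0.30 (Tgtp2). The median of all genes was itself at -0.28 in this contrast. The sign turned for Tgtp2 without aCSF1R replicate 8 (0.07). The highest member was also above 0 under median-of-ratios scaling (0.0039), library weights (0.15) and the replicate block (0.47). The contrast for Igtp was -1.01 ± 0.66 (SE). None passed the threshold (limma adjusted p = 0.975 for each, 0 of 7 at an unadjusted p below 0.05), and 0.290% of all genes did. With the library set term, the 7 members lay between -0.66 (Igtp) and -0.44 (Tgtp2), and the median of all genes was at -0.06. Igtp was then at -0.66 ± 0.21 (SE, limma unadjusted p = 0.00899, adjusted p = 0.331). In that fit 1 of 7 members had an unadjusted p below 0.05, beside 5.92% of all genes. None of the members passed the threshold there, and 1.21% of all genes did. Control enters this contrast with the opposite sign, so that a low control lowers it for all members together.

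The arms of the family differed in their relation to the library sets. In the fit with the set term, the higher-sum libraries differed from the lower-sum libraries by -1.68 ± 0.15 log2 units in Irgm1, by -1.95 ± 0.16 in Irgm2 and by -1.06 ± 0.11 in Igtp (SE, limma adjusted p = 1.91e-05, 1.91e-05 and 2.16e-05). The 3 regulators were thus called lower, as were 54% of all genes, and the median of all genes was at -0.68. None of the effectors was called. Ifi47 was at 0.23 ± 0.11, Tgtp1 at 0.18 ± 0.19, Tgtp2 at 0.42 ± 0.19 and Iigp1 at 0.20 ± 0.17 (limma adjusted p from 0.0693 to 0.385), and 5.23% of all genes were called higher. Scaling by the median of ratios brought the median of all genes to -0.02 and placed the regulators between -1.10 and -0.19 and the effectors between 1.05 and 1.29.

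The ratio of summed effector to summed regulator TPM within a library does not depend on the scaling. It was 1.31 ± 0.19 in the 7 lower-sum libraries (1.10 to 1.58) and 4.34 ± 0.96 in the 5 higher-sum libraries (3.34 to 5.75), with no overlap (mean ± SD over libraries). Among the lower-sum libraries the highest ratio was that of control replicate 5 at 1.58, next to IL-10-Fc replicate 4 at 1.56. Among the higher-sum libraries aCSF1R replicate 8 was at 5.75 and control replicate 4 at 4.85. The groups overlapped, from 1.58 to 4.85 in control and from 1.10 to 5.75 in the treated tumors. The part that RNA quality, transcript features or the makeup of these tumors has in the split was not tested. Annotated transcripts of regulators had GC contents of 45.68% to 49.5% and those of effectors 39.3% to 45.74%. These ranges overlapped, since the effector Ifi47 was above the regulator Irgm1. Their lengths overlapped as well (2022 to 3528 against 1773 to 3121 bases).

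**Figure D3:**
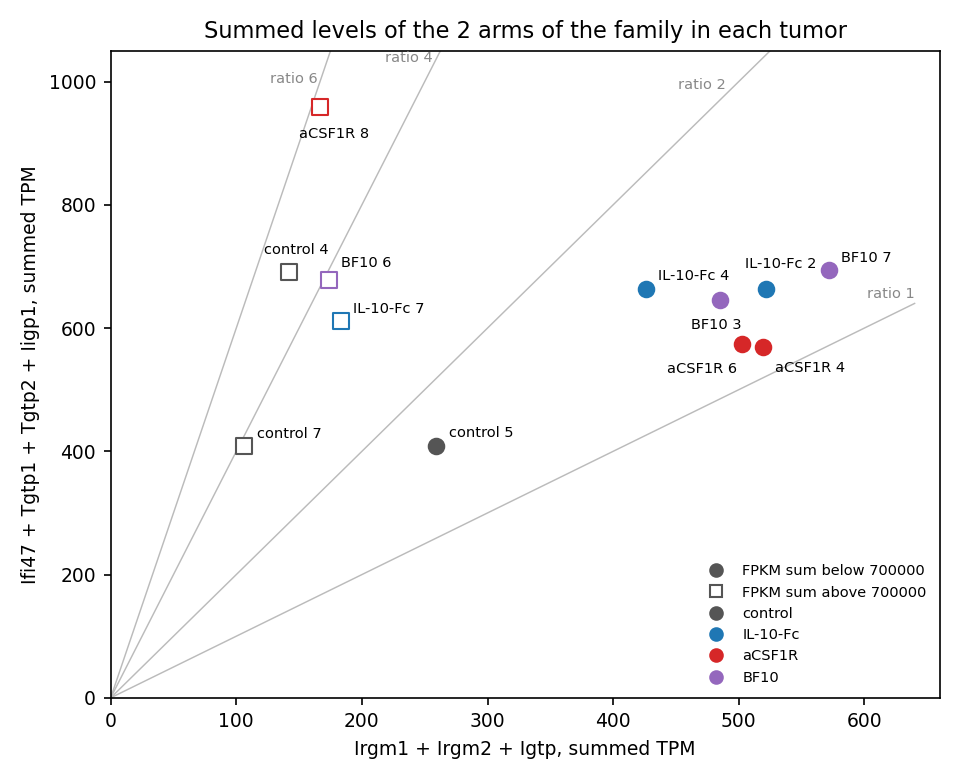
Summed TPM of the regulators Irgm1, Irgm2 and Igtp (horizontal axis) against that of the effectors Ifi47, Tgtp1, Tgtp2 and Iigp1 (vertical axis) in each tumor, labelled by group and replicate, with grey lines of equal ratio. The 5 higher-sum libraries (open squares) lie at ratios from 3.34 to 5.75 and the 7 lower-sum libraries (filled circles) at 1.10 to 1.58.

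Within the 7 lower-sum libraries the members varied together. Pearson's r between members of log2(TPM + 1) ranged from 0.85 to 0.95 among the regulators, from 0.81 to 0.95 among the effectors and from 0.51 to 0.94 between the arms. These are descriptions over 7 libraries that include 1 control and 6 treated tumors, and they share control replicate 5 as the lowest point. Among genes outside the family, the 5 most like its mean over these libraries were Ly6e (r = 0.975), A530032D15Rik (0.974), Cenpe (0.974), the mitochondrial transfer RNA gene mt-Ty (0.974) and Gm43302 (0.969). Ly6e, an interferon-induced membrane protein gene, was at 375 TPM in control replicate 5 and at 560 to 704 TPM in the other 6 libraries.

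The interferon gamma axis was measured by 8 genes, all of which were tested. None was called against control in any group, and 7, 7 and 6 of 8 had a higher mean under BF10, IL-10-Fc and aCSF1R. Their median difference was 0.53, 0.51 and 0.32 log2 units, beside 0.32, 0.35 and 0.24 for all genes. Ifngr2, a chain of the receptor, was at 0.91 ± 0.77, 1.05 ± 0.77 and 0.59 ± 0.77 under BF10, IL-10-Fc and aCSF1R (SE). Ifng, the ligand, was low throughout, at 0.721 to 1.45 TPM in control, 1.37 to 2.33 under IL-10-Fc, 1.48 to 1.71 under aCSF1R and up to 3.05 under BF10.

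Of the 6 genes of the type I interferon axis 5 were tested, since Ifnb1 was at 0 to 0.374 TPM. All 5 had a higher mean than control in each treated group, none was called, and the medians were 0.77, 0.77 and 0.61. With the library set term these medians were 0.20, 0.07 and 0.005. Those of the interferon gamma axis were then 0.32, 0.34 and 0.11, and those of the IRG members 0.59, 0.52 and 0.63. Stat2 had the largest difference, at 1.07 ± 0.90, 1.00 ± 0.90 and 1.17 ± 0.90 under BF10, IL-10-Fc and aCSF1R (SE), and Irf9, its partner in the factor that binds ISRE elements, was at 0.90 ± 0.90 under BF10 and 0.85 ± 0.90 under aCSF1R. Ifnar1, a chain of the type I receptor, was at 0.80 ± 1.00 under IL-10-Fc.

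The guanylate-binding proteins are a related family of interferon-induced GTPases. All 11 were tested and had a higher mean than control in each treated group, none was called, and the medians were 0.83, 0.79 and 0.79 log2 units (0.58, 0.67 and 0.70 with the library set term). Gbp5 and Gbp4 led under BF10 at 1.27 ± 0.25 and 1.23 ± 0.29 and under IL-10-Fc at 1.21 ± 0.25 and 1.279 ± 0.29 (SE), and Gbp10 and Gbp6 led under aCSF1R at 1.11 ± 0.28 and 1.08 ± 0.25. With the library set term 5 of 11 were called higher under aCSF1R (Gbp3, Gbp5, Gbp6, Gbp9 and Gbp10) and 1 under IL-10-Fc (Gbp5, 1.07, limma adjusted p = 0.0473). With 1 library left out at a time, the count under aCSF1R was 0 when control replicate 5 was omitted and 7 when control replicate 4 was, and it was 1 or 2 without control replicate 7 or any of the aCSF1R libraries, and 3 without IL-10-Fc replicate 2 or 4. The call under IL-10-Fc was lost in all 12 fits.

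Other loci of the IRG family were lower in level. Of 8 listed, 6 were tested and Irgc1 and F830016B08Rik stayed below the filter at 0.965 TPM or less. None was called against control, and the medians were 0.47, 0.50 and 0.47 (0.21, 0.10 and 0.07 with the library set term). Gm12250 (Irgb10) had the largest difference, 1.05 ± 0.61 under BF10, 0.95 ± 0.61 under IL-10-Fc and 1.20 ± 0.61 under aCSF1R, and Gm4951 was at 0.98 ± 0.65, 0.87 ± 0.65 and 0.88 ± 0.65 (SE). The genes of the ubiquitin-like conjugation system, which guides IRG proteins to vacuoles, were spread around 0. Of 10 tested, 4, 5 and 5 had a higher mean than control, none was called, and the medians were -0.06, 0.02 and 0.02. Gabarapl1 had the largest difference, 0.67 ± 0.80, 0.73 ± 0.80 and 0.43 ± 0.80 (SE), followed by Atg7 at 0.61 ± 0.66 and 0.59 ± 0.66 under BF10 and IL-10-Fc and by Atg5 at -0.30 ± 0.33 under aCSF1R. Between the treated groups, 0 genes of these 5 lists were called.

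**Figure D4:**
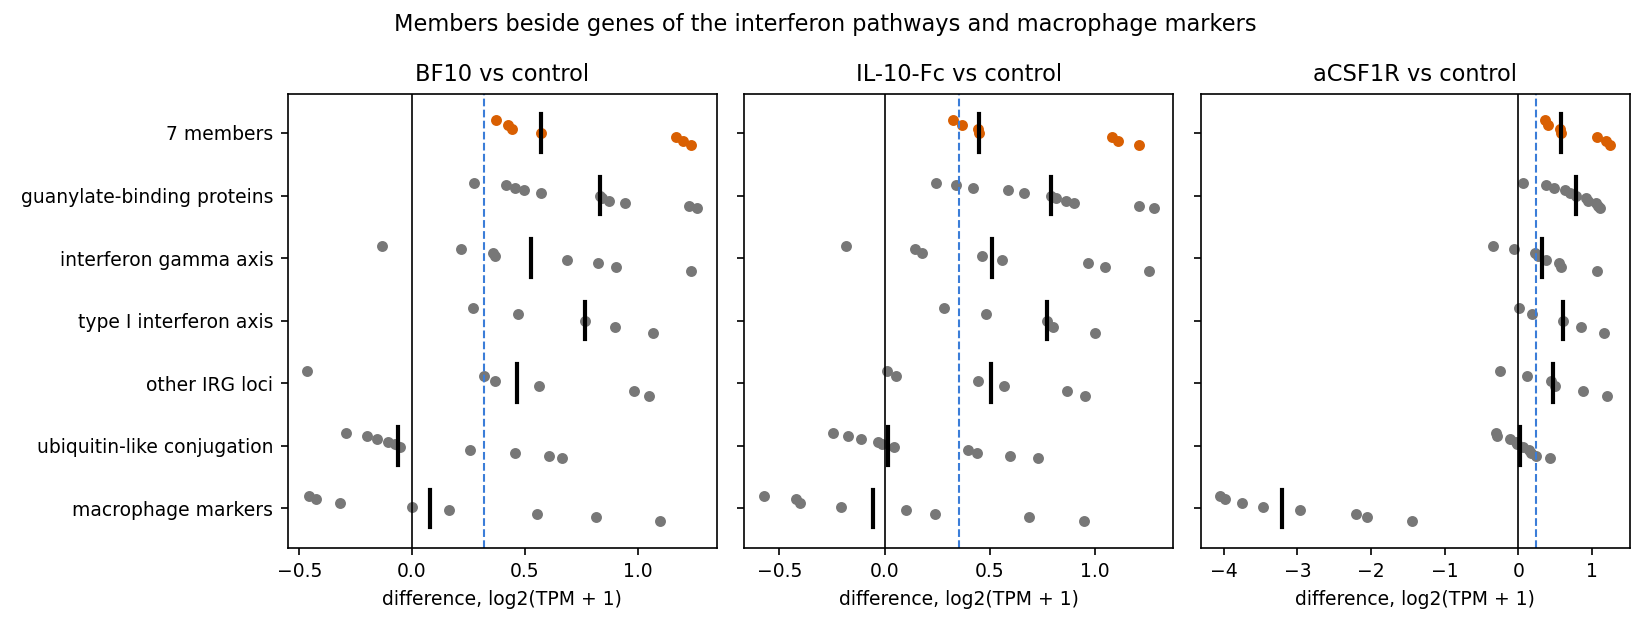
Difference from control in log2(TPM + 1) (horizontal axes, with a wider scale for aCSF1R) of the 7 members (orange) and of genes of 6 lists (grey), with black bars for medians and dashed lines for the median of all genes. The macrophage markers stand at a median of -3.21 under aCSF1R, where the members stand at 0.58.

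Macrophages can express IRGs, and their markers moved in 1 of the groups. Of 8 macrophage markers, 6 were called lower under aCSF1R than in control (median -3.21 log2 units), none was called under BF10 or IL-10-Fc, and their summed TPM was 81.1 to 251 under aCSF1R, 1757 to 2249 in control, 1460 to 1642 under IL-10-Fc and 1706 to 1806 under BF10. Msr1, a scavenger receptor of macrophages, fell by 3.75 log2 units, and C1qc, a complement chain that they make, fell by 4.05 (limma adjusted p = 6.40e-05 and 0.000212). The family's summed TPM was 1077 to 1126 in the 3 aCSF1R tumors, with regulator sums of 167 to 519 and effector sums of 569 to 959. In the model of group means no IRG member was called in either direction under aCSF1R against control. The part of macrophages in the members' values was not tested.

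Markers of other cells that can carry IRGs were at the following summed levels, and their part in the members' values was not tested. The 6 T cell markers summed to 17.3 to 32.7 TPM in control, 22.8 to 39.7 under IL-10-Fc, 12.1 to 31.3 under aCSF1R and 14.7 to 41.7 under BF10. The 4 natural killer cell markers summed to 22.4 to 27.1, 21.7 to 28.4, 16.5 to 24.9 and 20.6 to 41.0 TPM in the same order, and Klrk1 was called higher under BF10 than under aCSF1R (1.35 log2 units, limma adjusted p = 0.0445). The other markers of that list were not called in this comparison, with Klrb1c at 0.55, Nkg7 at 0.25 and Ncr1 at -0.18. The 5 dendritic cell markers summed to 7.21 to 15.8, 12.2 to 24.1, 2.96 to 9.64 and 8.83 to 24.6 TPM. The 5 neutrophil markers ranged from 410 to 3276 TPM under aCSF1R and from 697 to 16113 under BF10, and from 794 to 1736 in control and 885 to 2106 under IL-10-Fc. Fibroblast markers (5) were at 405 to 1725 TPM in control, 1588 to 3367 under IL-10-Fc, 434 to 2827 under aCSF1R and 664 to 5479 under BF10. Endothelial markers (4) were at 19.0 to 67.2, 37.3 to 83.3, 9.44 to 82.2 and 22.4 to 105 TPM. The 6 epithelial markers, which check the label of a carcinoma, were at 928 to 2149, 1345 to 2167, 670 to 2290 and 1441 to 2170 TPM. In the model of group means no marker of these 7 lists was called against control, and none was at 0 in all libraries. In the fit with the set term, in which Igtp was called under aCSF1R, the natural killer cell marker Klrk1 (-1.16 log2 units, limma adjusted p = 0.0105) and the dendritic cell marker Itgax (-1.55, adjusted p = 0.00195) were called lower under aCSF1R than in control. The other natural killer cell markers were not called, with Klrb1c at -0.89, Ncr1 at -0.06 and Nkg7 at 0.07. Nor were the other dendritic cell markers tested, Clec9a at -0.36 and Zbtb46 at -0.02.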

How the data were processed

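RNA from 12 tumors was sequenced by the authors from stranded poly(A) libraries. The deposited table holds FPKM values for 55401 genes in 12 columns, each matched to a sample by its title, and the annotation was GRCm38 (mm10). Per the submitters' processing notes, STAR 2.7.5a, RSEM 1.3.3 and DESeq2 1.28.0 were used; their settings are not given in the sources used here. Read counts were not used here. The other deposited files hold the authors' own pairwise test results (fold changes and p-values) and were not used.

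FPKM values were rescaled to TPM. The 15504 genes that reached 1 TPM in 3 or more libraries were fitted with limma 3.58.1 in R 4.3.3 on log2(TPM + 1), with 1 mean for each group over 12 libraries (8 residual degrees of freedom) and a variance trend. A gene was called at a Benjamini-Hochberg adjusted p below 0.05 and a difference of at least 1.5-fold, a rule given in the study's methods. For the gene lists of its pathway analysis the paper instead gives a cutoff on p with limits on the fold change. That cutoff was not used here. Single members were also compared by exact permutation tests, two-sided, whose smallest p with 3 against 3 tumors is 0.1. The fitting script was tested on simulated data. The labels give separate tumors as replicates. Replicate numbers shared between groups were not taken to pair samples. Deviations from group means of same-numbered libraries correlated at -0.66 to 0.42 over 7 pairs, which does not settle whether they were paired. The boundary between library sets was an FPKM sum of 700000.

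The members and gene lists were chosen with earlier results of these data known. Of each list the text names the genes past the threshold in any comparison and the 2 of largest difference in each comparison with control. Genes most like the family were the 5 with the highest Pearson's r to the members' mean over the lower-sum libraries. Ratios were formed from TPM. Promoters were taken from RefSeq and gene models from GENCODE vM21. Protein sequences were not analysed here. One gene of the interferon gamma list is counted in it but not reported here.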

Additional observations from a re-analysis of the deposited data

How the results depend on the processing

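No member was called in the main fit, and the counts of members called stayed at 0 in all 7 comparisons with a pseudocount of 0.1, FPKM without rescaling, median-of-ratios scaling, no filter on low values and each of 12 libraries left out (0 to 0), and in the 6 pairwise comparisons with the compared groups alone. The library set term called 1 member, Igtp, in aCSF1R against control, in 5 of 12 fits that each left out 1 library. Library weights, which ranged from 0.0848 (aCSF1R replicate 8) to 8.47 (IL-10-Fc replicate 4), called 3 members, the regulators, in each comparison with control and 3 in the non-additive contrast, where they also called 54.6% to 63.2% of all genes. Under median-of-ratios scaling the sign turned for Tgtp1 in BF10 (-0.0105) and for Tgtp1 (-0.0812), Tgtp2 (-0.12) and Iigp1 (-0.00458) in IL-10-Fc. Under library weights it turned for Tgtp2 in aCSF1R (-0.0834). The cause was not tested. With the replicate number as a replicate block, which left 2 residual degrees of freedom, 0 members were called in every comparison, and Ifi47 (-0.00205) and Tgtp2 (-0.25) turned in aCSF1R. Same-numbered control and IL-10-Fc libraries correlated at -0.26 and 0.35, too few values to settle whether the numbers pair samples. Without BF10 replicate 6, IL-10-Fc replicate 7 or aCSF1R replicate 8, Irgm1 stood at 1.89, 1.60 and 1.80 and Irgm2 at 1.86, 1.79 and 2.06 against control; none of the single omissions turned a member's direction against control. Without aCSF1R replicate 8, Tgtp2 was at 0.03. Total reads were not in the files used here, so the part of depth in these calls was not tested. The summary of the treated-group pairs by median and range and the omission of libraries under the set term were alternatives chosen after seeing the data, as was the gene-by-gene estimate of the library weights, taken because the default estimate did not converge.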
